A study of Mus musculus with 21 samples.

Results

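The alanine tRNAs with the anticodons CGC and TGC were followed in the cerebrum and cerebellum of mice with and without a Polr3a mutation. Their isodecoders, sister tRNAs that share an anticodon but differ elsewhere in sequence, were taken by name from the deposited count tables, and the mitochondrial alanine tRNA was left out. There were 12 of them among 213 tRNA rows in all, 5 with the anticodon CGC and 7 with TGC. The cerebrum table held 12 among 209 rows, and the cerebellum table held 11 among 208 rows, since it has no row for Ala-CGC-5-1. Each isodecoder was measured alone and as part of the summed counts of its anticodon.

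All mice were C57BL/6J, and mutants and wildtype mice alike received tamoxifen, with recombination at postnatal day 28 and freezing of the tissues at day 42. In all, 21 libraries were made by QuantM-tRNA-seq, a method built for structured and modified tRNA: 4 from cerebrum of Polr3a mutants (2 males, 2 females), 6 from cerebrum of wildtype mice (4 males, 2 females), 5 from cerebellum of mutants (2 males, 3 females) and 6 from cerebellum of wildtype mice (4 males, 2 females). The labels give neither the allele, the Cre driver nor the cells in which recombination took place. They also do not state that each library of a group is a separate animal. Nor do they say whether same-numbered libraries of both tissues, which are alike in sex, share one. The p-values here cover only the spread between libraries. Polr3a mRNA and cell type markers are outside what these libraries count, which left the mutation and the tissue unchecked. In bulk tissue, fewer cells of a type and less tRNA per cell cannot be told apart.

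Alanine is encoded by a box of codons that differ at the last base. The tRNA with the anticodon CGC reads GCG, the one with TGC (UGC in the RNA) reads GCA and, by wobble, other codons of the box, and the one with AGC, whose first base is changed to inosine, reads GCU and GCC. Alanyl-tRNA synthetase recognises its tRNAs chiefly by a G:U pair in the acceptor stem and does not read the anticodon, so isodecoders of all these anticodons are charged by the same enzyme. Nuclear tRNA genes are transcribed by RNA polymerase III from promoter elements inside the gene, and Polr3a encodes the largest subunit of that polymerase. Mitochondrial tRNAs are transcribed by another polymerase.

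RefSeq lists 9 Ala-CGC and 11 Ala-TGC genes in the mouse (GRCm38.p6), against 13 Ala-AGC genes, and all 20 genes of the CGC and TGC kinds are 72 bases long. Of these, 12 lie in one stretch of chromosome X, chrX:136357602-136590436, which spans 232.8 kb and holds 5 Ala-CGC and 7 Ala-TGC genes. The other Ala-CGC genes lie on chromosomes 2, 4 and 13, and the other Ala-TGC genes on chromosomes 5, 11 and 13. On chromosome X, 3 of the 5 Ala-CGC genes have an Ala-TGC gene at a higher coordinate and almost the same distance, 1381, 1382 and 1381 bases from start to start. The table does not pair these genes with isodecoder names, so no isodecoder is placed on a chromosome here. For comparison, the mitochondrial tRNA counted as Ala-TGC-MT carries the same anticodon. Its gene, mt-Ta, lies at chrM:5018-5086 on the minus strand (GRCm38, GENCODE M21) and is 69 bases long. It is shown with the anticodon, bases 31 to 33, in capitals because it is the alanine tRNA with this anticodon that RNA polymerase III does not make.
mt-Ta: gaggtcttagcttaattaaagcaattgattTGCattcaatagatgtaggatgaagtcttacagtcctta

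**Figure D1:**
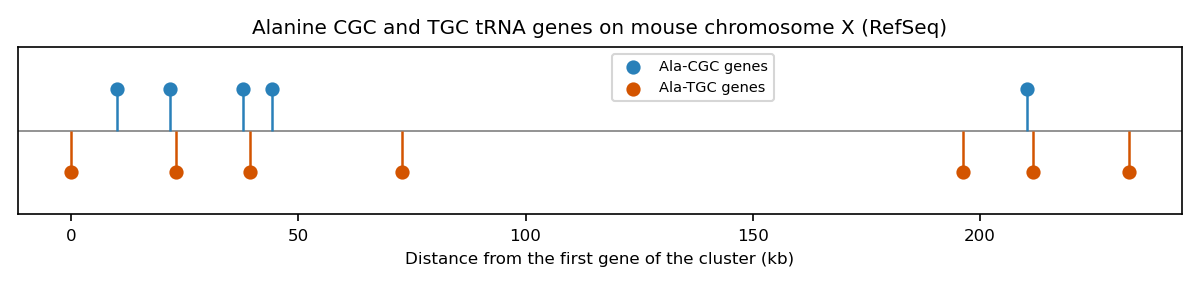
Positions of the 12 alanine CGC and TGC tRNA genes on mouse chromosome X, as distance in kb from the first gene of the cluster (RefSeq). Upward marks are the 5 Ala-CGC genes and downward marks the 7 Ala-TGC genes, and 3 of the Ala-CGC marks stand within 2 kb of an Ala-TGC mark.

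Cerebrum libraries held 4830413 to 7588902 tRNA counts in mutants and 4353056 to 6171896 in wildtype. Cerebellum libraries held 2146717 to 7110313 counts in mutants and 1612754 to 5323340 in wildtype, in 2 classes of depth. The shallow class, at most 2272675 counts, held mutant 1 and 5 of the 6 wildtype libraries, and the deep class, at least 4831721 counts, held mutants 2 to 5 and wildtype 5, so depth and genotype cannot be fully told apart in that tissue. The CGC and TGC isodecoders together took 0.972% to 1.87% of counts in cerebrum mutants and 1.14% to 1.56% in cerebrum wildtype libraries, and 1.65% to 2.90% in cerebellum mutants against 1.88% to 3.12% in cerebellum wildtype libraries. Mitochondrial tRNAs took 12.8% to 15.7% of counts in cerebrum mutants against 10.4% to 11.7% in wildtype, and 14.0% to 21.2% in cerebellum mutants against 12.5% to 14.4% in wildtype. Cerebellum mutant 5 stood apart from the other mutants in several of the tRNAs described here. For part of the results that include it, values without it are given as well.

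Ala-TGC-2 was the most abundant of the isodecoders in every group, and the levels covered more than 3 orders of magnitude. Levels are CPM, counts scaled to the size of the library, with TMM factors, which set the bulk of tRNAs equal between libraries. Ala-TGC-2 averaged 5010 ± 747 CPM in cerebrum mutants (SD, n = 4) and 4223 ± 276 CPM in cerebrum wildtype (SD, n = 6), and it averaged 9267 ± 2395 CPM in cerebellum mutants (SD, n = 5) and 8765 ± 1245 CPM in cerebellum wildtype (SD, n = 6). It ranked between 30 and 45 among all rows of a table. Ala-CGC-2-1 came next, then Ala-CGC-1 and Ala-TGC-4-1, in all 4 groups. In wildtype cerebrum these averaged 3012, 2478 and 1902 CPM, and the mean ± SD ranges of neighbours in that order did not touch, except for Ala-CGC-2-1 and Ala-CGC-1 in cerebrum mutants, Ala-TGC-2 and Ala-CGC-2-1 in both cerebellum groups and Ala-CGC-1 and Ala-TGC-4-1 in cerebellum wildtype.

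Below them, Ala-TGC-6-1 and Ala-TGC-1-1 were level in wildtype cerebrum, at 869 ± 118 and 862 ± 53.9 CPM (SD, n = 6). In cerebrum mutants Ala-TGC-6-1 lay above Ala-TGC-1-1, at 1077 ± 76.8 against 699 ± 113 CPM (SD, n = 4), while in cerebellum the order was the other way round, with 1233 ± 77.8 CPM for Ala-TGC-6-1 and 1746 ± 299 CPM for Ala-TGC-1-1 in mutants (SD, n = 5). The remaining members were rare. Ala-TGC-7 averaged 85.8 CPM and Ala-TGC-5 27.9 CPM in wildtype cerebrum, and Ala-CGC-3, Ala-TGC-8-1, Ala-CGC-5-1 and Ala-CGC-4-1 stayed between 2.47 and 8.40 CPM there. Ala-CGC-4-1 had only 3 to 28 counts in any cerebrum library and was the lowest of all 209 rows in cerebrum mutants. Because Ala-CGC-1 and Ala-CGC-2-1 made up nearly all Ala-CGC counts, a change in the share of either is mirrored in the other.

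**Figure D2:**
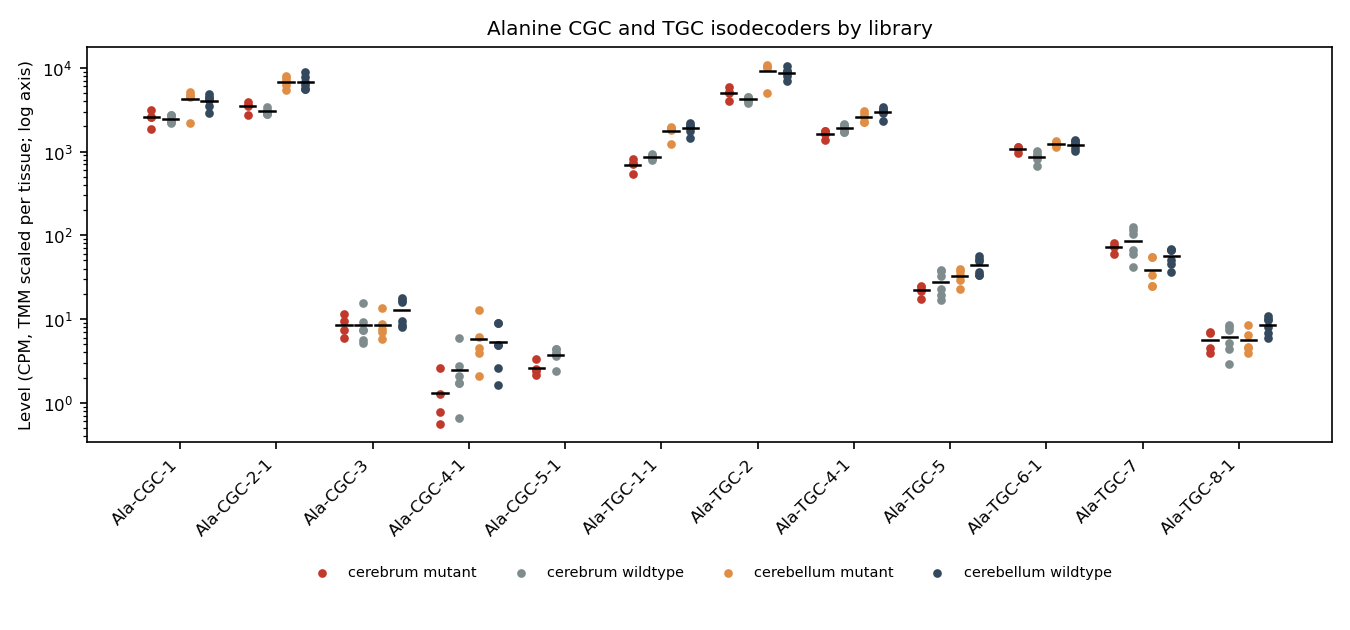
Level of each isodecoder in each library, in CPM on a log axis, with TMM scaling done within each tissue. Points are libraries and bars are group means, for cerebrum mutant (n = 4), cerebrum wildtype (n = 6), cerebellum mutant (n = 5) and cerebellum wildtype (n = 6). Ala-TGC-2 averages 5010 CPM in cerebrum mutants and 4223 CPM in cerebrum wildtype, and Ala-CGC-5-1 has points for cerebrum only.

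The cerebrum comparison asked whether the Polr3a mutation altered the level of these tRNAs relative to the rest of the pool. Neither anticodon passed the test as a whole. Summed Ala-CGC had 4633, 6247, 7075 and 6132 CPM in mutants 1 to 4, against a lowest value of 4985, a median of 5495 and a highest of 6098 CPM in the 6 wildtype libraries. Summed Ala-TGC had 6965, 8746, 9630 and 8705 CPM in mutants, against 7113, 7980 and 8768 CPM (lowest, median, highest) in wildtype. Mutant 1 was below every wildtype library in both sums, while the other mutants were above every one for Ala-CGC and only mutant 3 was for Ala-TGC. The log2 fold changes, mutant over wildtype, were 0.05 ± 0.13 for Ala-CGC and 0.02 ± 0.12 for Ala-TGC (SE; edgeR quasi-likelihood test with Benjamini-Hochberg adjustment over 72 anticodons, adjusted p = 0.898 and 0.94), and neither was called where 11.1% of anticodons were.

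None of the 12 isodecoders passed in the same comparison, where 19.7% of 208 tRNAs did, 41 in all. With unadjusted p under 0.05 there were 3 members, DESeq2 called 1 (Ala-TGC-6-1) and limma-voom 0. The matching shares of all tRNAs are not given here, so these counts have no background beside them. Ala-TGC-1-1 had 544, 706, 811 and 735 CPM in mutants, against a lowest of 800, a median of 846 and a highest of 944 CPM in wildtype (log2 fold change −0.30 ± 0.13, edgeR adjusted p = 0.112). Ala-TGC-6-1 had 968, 1140, 1121 and 1078 CPM in mutants, against 677, 887 and 1021 CPM in wildtype (0.31 ± 0.13, edgeR adjusted p = 0.106). Ala-TGC-2 had 4018, 5017, 5823 and 5184 CPM in mutants, against 3846, 4224 and 4524 CPM in wildtype (0.25 ± 0.11, edgeR adjusted p = 0.137). In each of these 3, one mutant library lay among the wildtype values, mutant 3 for Ala-TGC-1-1 and mutant 1 for the others. Mutant 1 was the lowest mutant library in 9 of the 12 isodecoders, and without it Ala-CGC-2-1, Ala-TGC-2 and Ala-TGC-6-1 passed as higher, where 24.5% of all tRNAs passed in either direction. The median log2 fold change of the 12 members was −0.18, against −0.03 over all 208 tRNAs and −0.07 over the 186 nuclear ones. The members ranged from −0.87 for Ala-CGC-4-1 to 0.31 for Ala-TGC-6-1.

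Although neither sum passed, the make-up of the TGC pool in cerebrum differed between genotypes. Shares within an anticodon need no scaling between libraries, since each is a ratio of counts in one library. Ala-TGC-1-1 made up 7.80%, 8.07%, 8.42% and 8.45% of Ala-TGC counts in mutants 1 to 4, against a lowest of 10.4%, a median of 10.7% and a highest of 11.7% in wildtype. Ala-TGC-4-1 made up 19.5%, 20.3%, 18.4% and 18.4% in mutants, against 23.0%, 23.8% and 25.1% in wildtype. Ala-TGC-2, the major isodecoder, made up 57.7%, 57.4%, 60.5% and 59.5% in mutants, against 51.6%, 53.1% and 54.1% in wildtype. In all 3 the groups did not overlap, with every mutant below every wildtype library for Ala-TGC-1-1 and Ala-TGC-4-1, and above for Ala-TGC-2. How often the shares of other isodecoders did not overlap was not counted, so this is a description of these 3 alone.

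The log2 ratio of an isodecoder's counts to the rest of its anticodon was tested with limma across the 178 isodecoders that have a sister. Of the 12 members 7 passed, against 47.2% of all isodecoders tested, so a shifted make-up was not unusual among tRNAs in this comparison. By direction 3 were higher, against 20.2% of isodecoders, and 4 lower, against 27%. Ala-TGC-1-1 fell by 0.45 on the log2 scale (SE 0.06, limma adjusted p = 0.000284), and Ala-TGC-4-1 fell by 0.40 (SE 0.05, limma adjusted p = 0.000284). Ala-TGC-2 rose by 0.34 (SE 0.05, limma adjusted p = 0.000318). These 3 calls were kept in every fit that left out 1 library, with adjusted p between 0.000288 and 0.00204. Each ratio is taken against the sisters of the same anticodon, so the rise of one and the falls of the others are not independent results. Ala-TGC-6-1 rose by 0.26 (SE 0.08, limma adjusted p = 0.0177), and its shares were 13.9%, 13.0%, 11.6% and 12.4% in mutants, against 9.52%, 10.9% and 11.6% in wildtype. Its groups met at 11.6%, and without mutant 1 the call was lost (limma adjusted p = 0.0631).

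The other calls were smaller or rested on few counts. Ala-CGC-2-1 made up 59.2%, 58.0%, 55.8% and 57.5% of Ala-CGC counts in mutants, against 52.1%, 55.5% and 56.3% in wildtype. It rose by 0.17 relative to Ala-CGC-1 and the rest (SE 0.06, limma adjusted p = 0.0341), and Ala-CGC-1 fell by 0.17 in return (SE 0.06, limma adjusted p = 0.0421). Both calls were lost in 5 of the 10 fits without 1 library, with adjusted p up to 0.127. Ala-CGC-5-1 fell by 0.63 (SE 0.24, limma adjusted p = 0.0487) on 16, 22, 13 and 11 counts in mutants, against 11 to 25 counts in wildtype, and its call was lost in 7 of those 10 fits. The shares of Ala-CGC-3, Ala-CGC-4-1, Ala-TGC-5, Ala-TGC-7 and Ala-TGC-8-1 did not pass.

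**Figure D3:**
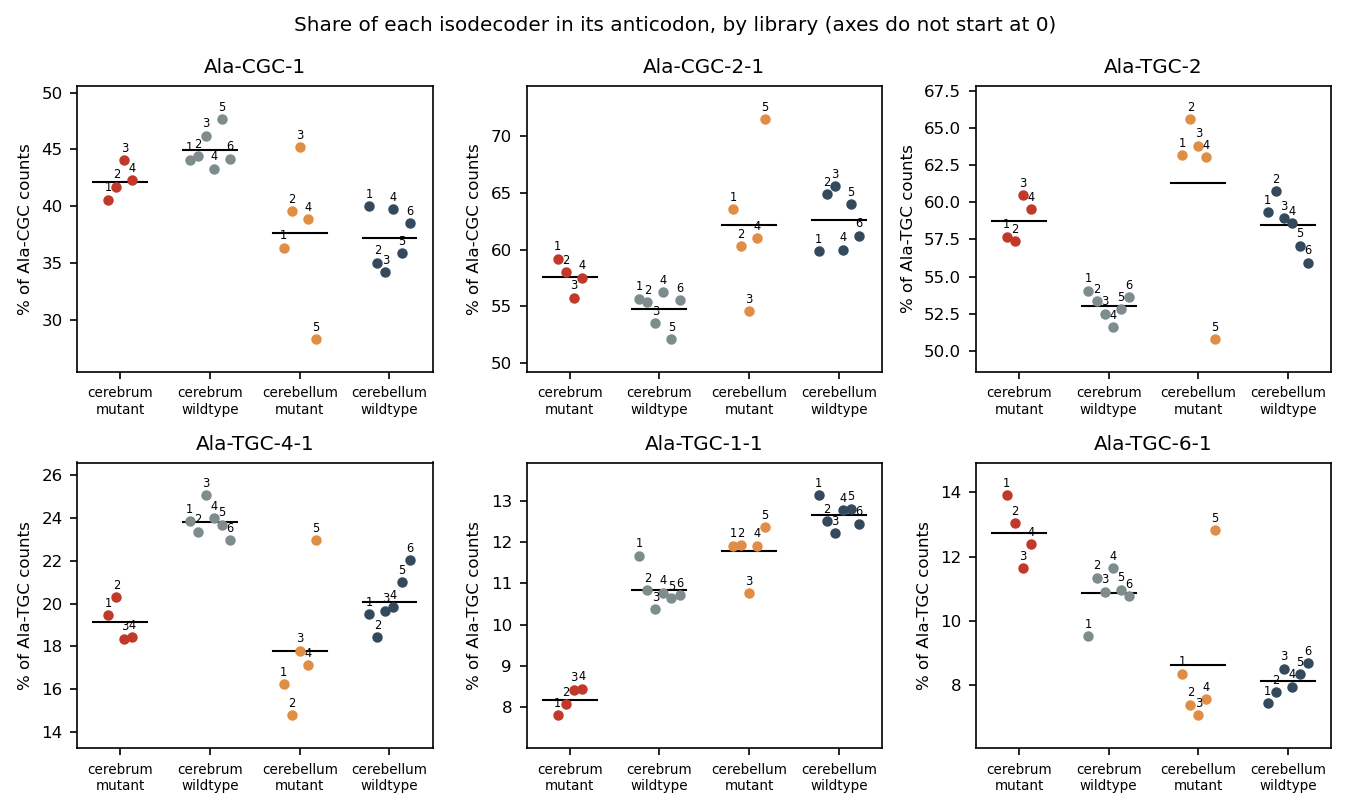
Share of 6 isodecoders in the counts of their own anticodon, in percent, by group; axes do not start at 0. Points are libraries with their replicate number and bars are group means. In cerebrum the mutant points of Ala-TGC-1-1 (7.80% to 8.45%) lie below all wildtype points (10.4% to 11.7%), and cerebellum mutant 5 lies far from the other cerebellum mutants for Ala-TGC-2, at 50.8%.

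The rare isodecoders Ala-TGC-5 and Ala-TGC-7 had wide spreads in wildtype, where libraries 4 to 6 were above libraries 1 to 3 in both tissues. In cerebrum, Ala-TGC-7 had 59.1, 81.6, 75.3 and 72.7 CPM in mutants 1 to 4, against 42.4, 60.0 and 66.5 CPM in wildtype 1 to 3 and 127, 114 and 104 CPM in wildtype 4 to 6. Ala-TGC-5 had 17.3, 21.8, 25.1 and 24.0 CPM in cerebrum mutants, against 16.8, 19.5 and 23.0 CPM in wildtype 1 to 3 and 38.5, 37.4 and 32.2 CPM in wildtype 4 to 6. In both, every mutant lay above wildtype 1 and below wildtype 4 to 6. In cerebellum, Ala-TGC-7 had 24.8, 24.6, 54.4, 33.7 and 55.0 CPM in mutants 1 to 5, against 45.9, 50.8 and 36.1 CPM in wildtype 1 to 3 and 69.1, 67.6 and 66.1 CPM in wildtype 4 to 6. The labels do not say what a replicate number stands for, and its part in these values was not tested.

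Within alanine, the CGC and TGC sums gained slightly on AGC in mutant cerebrum, without passing. Summed Ala-CGC made up 14.1%, 15.2%, 16.4% and 15.3% of nuclear alanine counts in mutants, against 13.7%, 14.1% and 14.5% in wildtype, and Ala-TGC made up 21.2%, 21.3%, 22.3% and 21.8%, against 19.6%, 20.4% and 21.4%. The groups overlapped in both anticodons. The log2 ratios to the other alanine tRNAs differed by 0.13 ± 0.05 for Ala-CGC, 0.11 ± 0.04 for Ala-TGC and −0.15 ± 0.06 for Ala-AGC (SE; limma adjusted p = 0.0581, 0.0529 and 0.0812), in a comparison where 17.9% of 39 anticodons were called. Of the 9 Ala-AGC isodecoders, 2 passed as lower in cerebrum level, Ala-AGC-1-1 (−1.62 ± 0.16, edgeR adjusted p = 3.37e-07) and Ala-AGC-5 (−1.11 ± 0.17, edgeR adjusted p = 0.000114), and their median was −0.11. In cerebellum neither Ala-CGC nor Ala-TGC passed within alanine (2.56% of 39 anticodons called).

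How the libraries were set on a common scale decided whether the members were called between genotypes. Mitochondrial tRNAs took a larger share in mutants, so scaling each library by its mitochondrial total gave a median log2 fold change of −0.41 over all 208 cerebrum tRNAs, where TMM gave −0.03. With that scaling 6 of the 12 members were called in cerebrum, all lower, where 53.4% of tRNAs were called: Ala-CGC-4-1, Ala-CGC-5-1, Ala-TGC-1-1, Ala-TGC-4-1, Ala-TGC-5 and Ala-TGC-7. Per 100 mitochondrial tRNA counts there were 3.02, 4.34, 5.07 and 4.24 Ala-CGC counts in mutants, against 4.19, 5.05 and 5.60 (lowest, median, highest) in wildtype, and 4.54, 6.07, 6.90 and 6.02 Ala-TGC counts in mutants, against 6.28, 7.30 and 8.05 in wildtype. Scaling by a bacterial tRNA spike-in, whose amount per library the labels do not give, called the same number of cerebrum members, 6, against 35.6% of tRNAs. Under both, Ala-TGC-2 and Ala-TGC-6-1 were the least lowered of the 7 TGC members, at −0.14 and −0.08 with the mitochondrial total, and neither was called. The sums were −0.26 for Ala-CGC and −0.29 for Ala-TGC with the mitochondrial total and were not called (edgeR adjusted p = 0.0961 and 0.06), where 36.1% of anticodons were. Median-of-ratios factors from mitochondrial tRNAs alone called both as lower, at −0.29 and −0.33 (edgeR adjusted p = 0.0383 and 0.0215), where 45.8% of anticodons were called.

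Size factors computed over mitochondrial rows alone matched the mean levels in the authors' deposited table of single tRNAs for cerebrum within 0.448%. For the authors' deposited anticodon table for cerebrum the median row was off by 0.231%, and 1 row was off by 53.9%. The authors' deposited anticodon table for cerebrum gives −0.31 for Ala-TGC (adjusted p = 0.0197) and −0.28 for Ala-CGC (adjusted p = 0.0587). In the authors' deposited table of single tRNAs for cerebrum, 7 of the 12 members have an adjusted p under 0.05, led by Ala-TGC-1-1 (0.71) and Ala-TGC-4-1 (0.63). The share of all rows that pass there was not counted. In the fit made here with median-of-ratios factors from mitochondrial tRNAs, 117 of 208 cerebrum tRNAs were called, all lower. The signs of that authors' deposited table run wildtype over mutant, opposite to the fit made here in 205 of 208 rows, so its positive values mean lower in mutants.

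**Figure D4:**
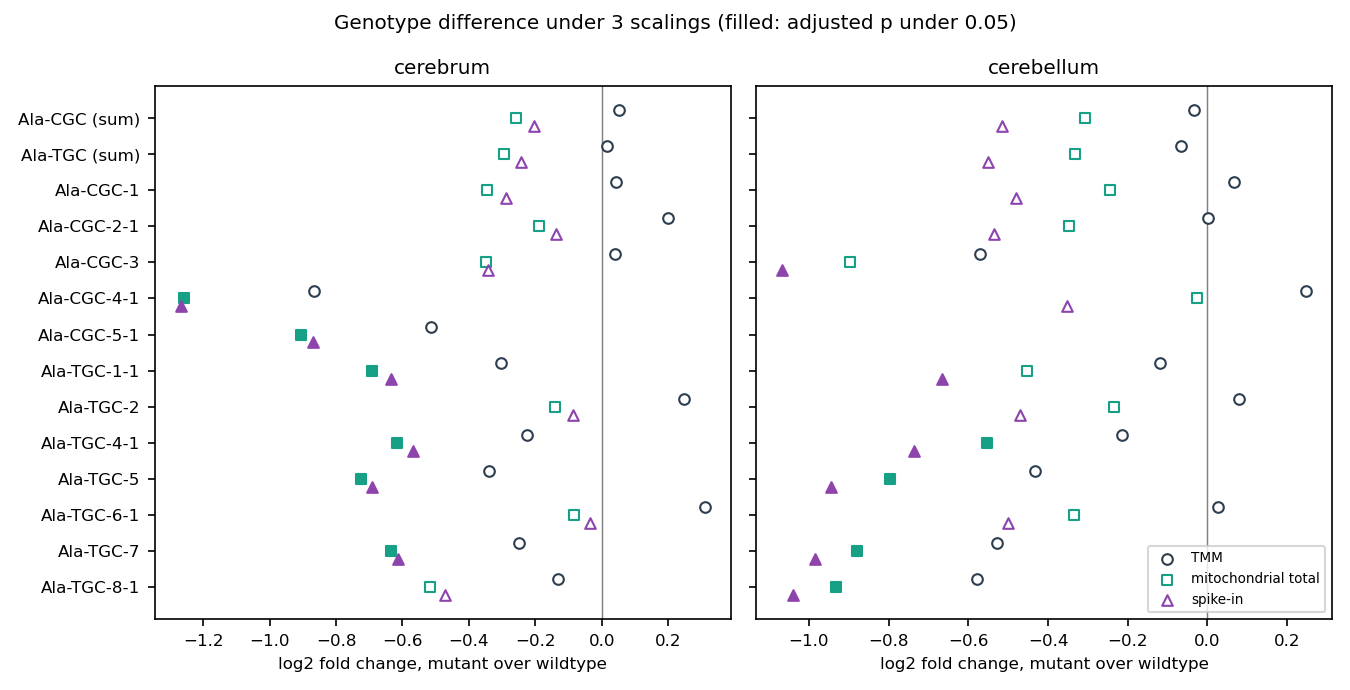
Log2 fold change, mutant over wildtype, of both anticodon sums and each isodecoder in cerebrum and cerebellum under TMM, mitochondrial total and spike-in scaling. Filled symbols have an adjusted p under 0.05; with TMM none is filled in either tissue, and with the mitochondrial total 6 are filled in cerebrum and 4 in cerebellum, all below 0.

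In cerebellum neither sum and no member passed between mutants and wildtype. Summed Ala-CGC had 12599, 11426, 11376, 12257 and 7654 CPM in mutants 1 to 5, against 8517, 10866 and 13733 CPM (lowest, median, highest) in wildtype. Summed Ala-TGC had 16091, 15380, 16930, 16294 and 9863 CPM in mutants, against 11802, 15149 and 17519 CPM in wildtype. Mutant 5 lay below every other library in both sums, and the other mutants lay among the wildtype values. The log2 fold changes were −0.03 ± 0.16 for Ala-CGC and −0.07 ± 0.15 for Ala-TGC (SE; edgeR adjusted p = 0.907 and 0.798; 0 of 71 anticodons were called, 0%), and without mutant 5 they were 0.10 ± 0.12 and 0.09 ± 0.11 (SE; edgeR adjusted p = 0.593 and 0.61).

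Of the 11 isodecoders 0 passed in cerebellum with edgeR, DESeq2 or limma-voom, against 2.48% of 202 tRNAs called by edgeR, and 2 had an unadjusted p under 0.05, Ala-TGC-5 (−0.43 ± 0.20) and Ala-TGC-8-1 (−0.58 ± 0.25; edgeR adjusted p = 0.247 and 0.214). The share of all tRNAs with an unadjusted p under 0.05 is not given here. Ala-TGC-2 had 10161, 10089, 10803, 10271 and 5012 CPM in mutants 1 to 5, against 6958, 8933 and 10644 CPM in wildtype (0.08 ± 0.17, edgeR adjusted p = 0.899). Ala-CGC-1 had 4581, 4522, 5141, 4763 and 2169 CPM in mutants, against 2911, 4271 and 4811 CPM in wildtype (0.07 ± 0.19, edgeR adjusted p = 0.914). In both, 4 mutants sat at the upper end of the wildtype range while mutant 5 was below all. Ala-TGC-4-1 and Ala-TGC-6-1 were not so low in mutant 5, at 2266 and 1264 CPM. Without mutant 5, Ala-TGC-8-1 alone passed as lower (−0.77 ± 0.23, edgeR adjusted p = 0.0348), where 16.2% of tRNAs were called; it had 8 to 57 counts in cerebellum mutants and 14 to 60 in wildtype. With mitochondrial total scaling 4 members were called in cerebellum, all lower (Ala-TGC-4-1, Ala-TGC-5, Ala-TGC-7 and Ala-TGC-8-1), where 26.2% of tRNAs were, and spike-in scaling called 6, against 41.1%. In the authors' deposited table for cerebellum the same 4 members have an adjusted p under 0.05. The share of all rows that pass there was not counted. Median-of-ratios factors from mitochondrial tRNAs called 30 of 202 cerebellum tRNAs here.

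Make-up within the TGC pool was not called in cerebellum with all libraries, and it was without mutant 5. With all 5 mutants 0 of 11 members passed the limma ratio test, against 10.4% of 173 isodecoders, and 0 had an unadjusted p under 0.05. Ala-TGC-2 made up 63.1%, 65.6%, 63.8%, 63.0% and 50.8% of Ala-TGC counts in mutants 1 to 5, against 55.9%, 58.8% and 60.8% in wildtype. Ala-TGC-4-1 made up 16.2%, 14.8%, 17.8%, 17.1% and 23.0% in mutants, against 18.4%, 19.8% and 22.0% in wildtype. The first 4 mutants lay above all wildtype libraries for Ala-TGC-2 and below all for Ala-TGC-4-1, and mutant 5 lay beyond the wildtype range on the other side for both.

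Without mutant 5, 5 of 11 members passed, against 24.6% of isodecoders. Ala-TGC-2 rose by 0.33 (SE 0.07, limma adjusted p = 0.0062), and Ala-TGC-4-1 fell by 0.35 (SE 0.08, limma adjusted p = 0.0113). In cerebrum these values were 0.34 and −0.40, and in cerebellum with all mutants they were 0.18 and −0.23 (limma adjusted p = 0.45 and 0.247). Mutant 5 stood out in these same shares, so the fit without it is not a separate test of them. The other members that passed without mutant 5 were Ala-TGC-5, Ala-TGC-7 and Ala-TGC-8-1, all with shares under 1%, at −0.60, −0.86 and −0.92. Ala-TGC-1-1 made up 11.9%, 11.9%, 10.8%, 11.9% and 12.4% in mutants, against 12.2%, 12.6% and 13.1% in wildtype, and its difference of −0.14 ± 0.06 without mutant 5 did not pass (limma adjusted p = 0.124).

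Ala-TGC-1-1 was the isodecoder whose genotype effect on make-up differed between the tissues. Its log2 ratio effect was −0.45 in cerebrum and −0.12 in cerebellum, a difference, cerebellum minus cerebrum, of 0.33 ± 0.08 (SE; limma interaction test, adjusted p = 0.00485). The call was kept in all 21 fits without 1 library, with adjusted p between 0.00224 and 0.0148. It was the single call among 11 members, against 19% of 174 isodecoders tested. Without cerebellum mutant 5 it was 0.31 ± 0.08 (limma adjusted p = 0.00551), and Ala-TGC-6-1 then also passed (−0.37 ± 0.11, limma adjusted p = 0.0145). The share of all isodecoders called without that library is not given here, so the added call has no background beside it. In levels, 0 of 11 members and neither sum showed a called difference between tissues in the genotype effect, against 4.90% of 204 tRNAs and 1.39% of 72 anticodons (edgeR; 0 members with unadjusted p under 0.05, and 0 by DESeq2 or limma-voom). For the sums the difference was −0.05 ± 0.20 for each.

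Both anticodons took a larger part of the tRNA pool in cerebellum than in cerebrum, in mutants and in wildtype. Tissue and library run cannot be told apart in these data. Depth also ran with tissue, since all cerebrum libraries were deep and 5 of the 6 wildtype cerebellum libraries were shallow. On one TMM scale for both tissues, wildtype Ala-CGC ran from 7270 over a median of 9716 to 12406 CPM in cerebellum, against 4960, 6181 and 6705 CPM in cerebrum. Wildtype Ala-TGC ran from 10074 over 13547 to 15826 CPM in cerebellum, against 6964, 8938 and 9807 CPM in cerebrum. No wildtype cerebellum library overlapped the cerebrum ones in either sum. How often this held over all anticodons was not counted. The log2 fold changes in wildtype, cerebellum over cerebrum, were 0.72 ± 0.13 for Ala-CGC and 0.65 ± 0.13 for Ala-TGC (SE; edgeR adjusted p = 1.66e-05 and 4.23e-05), and in mutants 0.67 ± 0.16 and 0.60 ± 0.15 (SE; edgeR adjusted p = 0.000331 and 0.000651). Without cerebellum mutant 5 the mutant values were 0.79 and 0.73. Most anticodons differed between the tissues, 75% of 72 in wildtype and 80.6% in mutants, so a call here is the rule. Ala-AGC differed by 0.77 ± 0.12 and mitochondrial Ala-TGC-MT by 1.39 ± 0.13 in wildtype (edgeR adjusted p = 8.41e-07 and 8.14e-11).

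This direction holds relative to the tRNA pool and turned round per spike-in count. The spike-in took 0.673% to 1.08% of counts in cerebellum mutants against 0.275% to 0.374% in cerebrum mutants, and 0.401% to 0.94% in cerebellum wildtype libraries against 0.222% to 0.316% in cerebrum wildtype libraries. Scaled to it, the median of all 204 tRNAs was −0.99 in wildtype, and the sums were −0.27 for Ala-CGC and −0.33 for Ala-TGC in wildtype (neither called), and −0.58 and −0.64 in mutants (both called). Both sums stayed above that median.

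Among isodecoders in wildtype, 5 of 11 passed as higher in cerebellum and 1 as lower, against 33.3% of 204 tRNAs higher and 37.7% lower (71.1% called). Ala-CGC-2-1 had 4770 to 8048 CPM in cerebellum (median 5824), against 2761 to 3752 CPM in cerebrum (median 3315), without overlap (0.88 ± 0.13, edgeR adjusted p = 1.18e-06). Ala-TGC-1-1 had 1231 to 1979 CPM in cerebellum (median 1753), against 813 to 1043 CPM in cerebrum (median 947), also without overlap (0.84 ± 0.13, edgeR adjusted p = 3.19e-06). Ala-TGC-2 followed (0.76 ± 0.15, edgeR adjusted p = 6.05e-05), then Ala-CGC-1 (0.41 ± 0.17, edgeR adjusted p = 0.0328) and Ala-TGC-4-1 (0.36 ± 0.12, edgeR adjusted p = 0.0111). Per spike-in count all 5 were below 0, at −0.075, −0.10, −0.18, −0.53 and −0.57 in the same order. How often levels of all tRNAs did not overlap between the tissues was not counted.

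Ala-TGC-7 went the other way. It had 30.8 to 61.4 CPM in wildtype cerebellum (median 52.6), against 41.5 to 139 CPM in wildtype cerebrum (median 95.2), and the fold change was −0.92 ± 0.25 on the log2 scale (SE; edgeR adjusted p = 0.00205). In mutants it had 22.9, 22.4, 53.1, 30.9 and 49.5 CPM in cerebellum, against 69.8, 92.1, 86.4 and 83.7 CPM in cerebrum, without overlap (−1.20 ± 0.29, edgeR adjusted p = 0.000623). Such gaps between tissues were not counted over all tRNAs. With depth class as a covariate the wildtype call was lost (−0.49, edgeR adjusted p = 0.303); 5 of the 6 wildtype cerebellum libraries were shallow. Ala-CGC-1 lost its wildtype call with that covariate too (adjusted p = 0.153).

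In mutants 6 of 11 members passed between tissues, against 72.5% of tRNAs (35.8% higher, 36.8% lower): Ala-CGC-2-1, Ala-CGC-4-1, Ala-TGC-1-1, Ala-TGC-2 and Ala-TGC-4-1 as higher in cerebellum and Ala-TGC-7 as lower. Ala-CGC-4-1 had the steepest value, 1.83 ± 0.56 (SE; edgeR adjusted p = 0.00426), on 8, 22, 69, 32 and 14 counts in cerebellum mutants against 8, 17, 3 and 4 in cerebrum mutants. Ala-CGC-1 missed the threshold in mutants (0.43 ± 0.20, edgeR adjusted p = 0.054), and without cerebellum mutant 5 it passed (0.60, edgeR adjusted p = 0.00137). With all libraries it passed as well by DESeq2 (0.48, adjusted p = 0.0263) and, in edgeR, with RLE size factors (0.48, adjusted p = 0.0275), library totals (0.72, adjusted p = 0.00599), the mitochondrial total (0.55, adjusted p = 0.037) and mitochondrial median-of-ratios scaling (0.55, adjusted p = 0.0452). With spike-in scaling it passed in the opposite direction (−0.72, edgeR adjusted p = 0.00544).

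**Figure D5:**
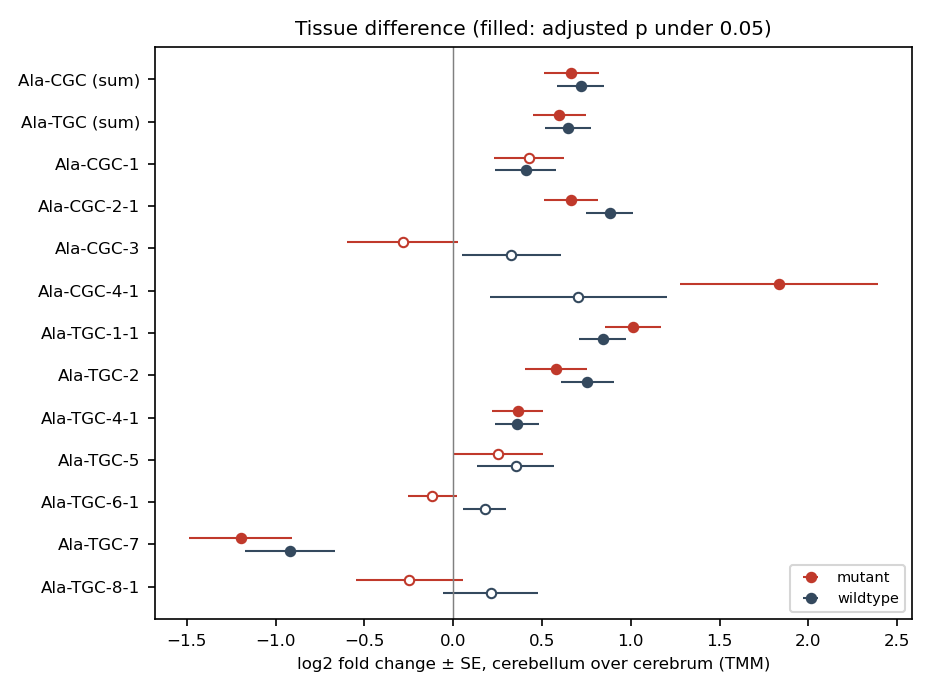
Log2 fold change ± SE, cerebellum over cerebrum, with TMM scaling of all libraries together, for mutant and wildtype mice. Filled points have an adjusted p under 0.05; Ala-TGC-7 is the only member called below 0, at −1.20 in mutants and −0.92 in wildtype.

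The make-up of each anticodon differed between tissues as well. In wildtype 7 of 11 members passed the limma ratio test, against 64.4% of 174 isodecoders. Ala-TGC-7 made up 0.290% to 0.466% of Ala-TGC counts in wildtype cerebellum, against 0.596% to 1.45% in wildtype cerebrum (−1.46 ± 0.27, limma adjusted p = 0.000105). Ala-TGC-1-1 made up 12.2% to 13.1% in wildtype cerebellum, against 10.4% to 11.7% in wildtype cerebrum (0.25 ± 0.05, limma adjusted p = 0.000254), and Ala-CGC-2-1 made up 59.9% to 65.6% of Ala-CGC, against 52.1% to 56.3% (0.47 ± 0.12, limma adjusted p = 0.00176). None of these shares overlapped between the tissues, and how often this held over all isodecoders was not counted. With depth class as a covariate 3 of the 7 calls in wildtype were left, those of Ala-CGC-1, Ala-CGC-2-1 and Ala-TGC-1-1, where 33.3% of isodecoders were called. The call of Ala-TGC-7 was lost in that fit (−1.02, limma adjusted p = 0.0545), as were those of Ala-TGC-2, Ala-TGC-4-1 and Ala-TGC-6-1. In mutants 5 of 11 members passed, against 62.6% of isodecoders, led by Ala-TGC-1-1 (0.58 ± 0.06, limma adjusted p = 7.41e-08) and Ala-TGC-7 (−1.79 ± 0.32, limma adjusted p = 5.69e-05). Relative to the other alanine tRNAs, Ala-TGC was lower in cerebellum of mutants (−0.17 ± 0.06, limma adjusted p = 0.0212, where 48.7% of 39 anticodons were called), while the wildtype value of −0.12 ± 0.05 did not pass (limma adjusted p = 0.0508, where 56.4% of anticodons were called). All mutant values in this paragraph include cerebellum mutant 5.

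Other amino acids whose codon box, like that of alanine, is read as a single amino acid offered tRNAs with the same first anticodon base. Among the 7 anticodons of such boxes that start with C (Arg-CCG, Gly-CCC, Leu-CAG, Pro-CGG, Ser-CGA, Thr-CGT and Val-CAC), 0 passed between genotypes in either tissue with edgeR. Of all anticodons, 11.1% passed in cerebrum and 0% in cerebellum. The medians of the 7 were 0.01 in cerebrum and −0.08 in cerebellum, against −0.05 and −0.08 over nuclear anticodons. With mitochondrial anticodons included, the medians over all were 0.02 and 0.01. Among the 7 of such boxes that start with T, 0 passed as well, with medians of 0.03 and −0.05. Between tissues in wildtype, where 75% of all anticodons were called, 3 of 7 passed as higher and 4 as lower in cerebellum in each list. Values ran from 0.76 for Val-CAC to −1.16 for Ser-CGA and from 0.77 for Val-TAC to −1.22 for Ser-TGA. Ala-CGC and Ala-TGC thus lay near the upper end of their lists, at 0.72 and 0.65.

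Over the 4 group means, with each profile of log2 CPM centred on its own mean, the pattern of Ala-CGC was nearest to those of Val-CAC, Val-TAC and Leu-TAG among 47 nuclear anticodons of other amino acids, at root-mean-square distances of 0.03, 0.03 and 0.04 log2 units against a median distance of 0.52. Ala-TGC was nearest to Val-CAC, Gly-GCC and Val-TAC, at 0.06, 0.07 and 0.07. The distance between Ala-CGC and Ala-TGC themselves was 0.04. These are descriptions of 4 group means that share the same libraries.

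Sex was examined because most of these genes lie on chromosome X. Male minus female, in a joint fit with tissue and genotype, differed by 0.05 ± 0.11 for Ala-CGC and 0.08 ± 0.10 for Ala-TGC on the log2 scale (SE; edgeR adjusted p = 0.98 for both). None of 11 members passed, and neither did any of the 204 tRNAs (0%), with the members between −0.10 and 0.54.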

How the data were processed

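tRNA libraries made with QuantM-tRNA-seq from Trizol-extracted RNA gave 21 libraries. The tools named are cutadapt, Bowtie2, featureCounts and DESeq2, and the build mm10, per the submitters' processing notes. Versions and the handling of reads that fit several near-identical isodecoders are not stated there, so counts of sister isodecoders are uncertain. The authors deposited a table of raw counts by tRNA for either tissue, and tables of log2 fold changes, p-values, a test statistic (a score) and a mean signal, counts over size factors, per the file headers. One cerebrum column was matched to a title that lacks part of the group code (CaT4).

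Tests used edgeR 4.0.16 (TMM, minimum count of 10, robust quasi-likelihood F tests) and limma 3.58.1 in R 4.3.3, fitted over all tRNAs and adjusted by Benjamini-Hochberg with a threshold of 0.05; edgeR SEs are the size of the effect divided by the root of F. All members passed the filter, but 4 in cerebrum and 3 in cerebellum had a mean count under 50. Genotypes were fitted within each tissue; tissues and interactions over all 21 libraries and the 204 shared tRNAs. Ratio tests compared log2 of a tRNA's counts over those of its sisters, with a pseudocount of 0.5. The spike-in row was kept out of totals and tests. CPM values are scaled within a tissue unless one scale is named. The genotype tests of isodecoder levels and of isodecoder ratios within a tissue were run on simulated data. Changes were placed only in rows with a mean count of at least 50. The other fits, such as those between tissues and of sums, were not simulated.

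Members, lists and tests were chosen with earlier results of these data known. Every member and both sums could be named; of other tRNAs, the other alanine tRNAs, the extremes of each list and the 3 sums nearest in profile. Alternatives were other scalings (RLE, library totals, mitochondrial total, spike-in, nuclear only), DESeq2 1.42.0, limma-voom, filters, covariates, a joint fit, a replicate block and leaving out libraries. Median-of-ratios scaling on mitochondrial tRNAs, leaving out cerebellum mutants 1 and 5 together, ratio tests between tissues and the sex comparison were added after seeing the data. All replicate pairs differed beyond sampling noise (lowest chi-square per degree of freedom 44.3). Nuclear tRNA sequences were not used here.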

Additional observations from a re-analysis of the deposited data

Results flagged for a closer look

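Of 108 groups of values, 13 held a library far from the rest by Dixon's test. Chance alone marks about 1 group in 20 when groups are independent. These groups are not, since they hold levels, shares and sums of the same tRNAs, so no excess over chance can be read from the 13. Of the 13, 8 were cerebellum mutant 5. Its levels were 2169 CPM for Ala-CGC-1 (next mutant 4522), 1219 CPM for Ala-TGC-1-1 (next 1822), 5012 CPM for Ala-TGC-2 (next 10089), 7654 CPM for summed Ala-CGC and 9863 CPM for summed Ala-TGC, each the lowest of 5 mutants. Its shares of Ala-TGC counts were 50.8% for Ala-TGC-2, the lowest, and 12.8% for Ala-TGC-6-1 and 0.0861% for Ala-TGC-8-1, the highest.

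Cerebellum mutant 3 had the highest share of Ala-CGC-4-1, 0.111%, and the lowest of Ala-TGC-1-1, 10.8%. Wildtype 4 of cerebrum had the highest Ala-CGC-3 value, 15.6 CPM and 0.256% of Ala-CGC counts, and wildtype 1 the highest share of Ala-TGC-1-1, 11.7%, which lies farther from the mutants than the other wildtype libraries.

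The genotype effect on the log2 ratio of Ala-TGC-1-1 to its sisters differed between tissues by 0.33 (limma interaction test, adjusted p = 0.00485).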

How the results depend on the processing

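Counts of called members depended most on scaling. For genotype levels in cerebrum (0 of 12) mitochondrial total, spike-in and mitochondrial median-of-ratios scaling each gave 6. Of all 208 tRNAs these scalings called 111, 74 and 117, all lower. DESeq2 and the joint fit gave 1 member each, and their calls over all tRNAs are not given here. In cerebellum (0 of 11) the same scalings gave 4, 6 and 2, where 53, 83 and 30 of 202 tRNAs were called. The last scaling called both cerebrum sums (2), at −0.29 for Ala-CGC and −0.33 for Ala-TGC, and moved Ala-CGC-1 to −0.38, all against positive values with TMM. Spike-in scaling left 0 of 2 sums called between tissues in wildtype. It turned round these tissue values in wildtype: the sums (−0.27 and −0.33), Ala-CGC-1 (−0.53), Ala-CGC-2-1 (−0.075), Ala-CGC-3 (−0.63), Ala-TGC-1-1 (−0.10), Ala-TGC-2 (−0.18), Ala-TGC-4-1 (−0.57), Ala-TGC-5 (−0.57), Ala-TGC-6-1 (−0.75) and Ala-TGC-8-1 (−0.75). In mutants it turned round the sums (−0.58 and −0.64), Ala-CGC-1 (−0.72), Ala-CGC-2-1 (−0.47), Ala-TGC-1-1 (−0.13), Ala-TGC-2 (−0.57), Ala-TGC-4-1 (−0.74) and Ala-TGC-5 (−0.82). The median over all tRNAs in wildtype was −0.99 with spike-in scaling and −0.05 with TMM; the cause was not tested.

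For ratios within an anticodon, depth class as a covariate left 3 of 7 calls between tissues in wildtype, and a mean count of at least 50 left 3 of 5 in mutants, because fewer members were tested. Without cerebellum mutants 1 and 5 the ratio calls were 4 (0 with all) between cerebellum genotypes, 8 (5 with all) between tissues in mutants and 4 (1 with all) for the difference of genotype effects, where 18.3%, 60.3% and 21.8% of all isodecoders were called. The labels name no animal that same-numbered libraries share, but sex was the same in every same-numbered pair between tissues. Such libraries may come from one animal, and the tissue, interaction and sex fits treated all 21 libraries as separate. The numbers were not taken as pairs, since some pairs did not correlate above the limit. Between tissues the correlation was above 0.1 in 6 of 10 pairs, and 8 of 20 libraries correlated best with their own number. Between genotypes, where a number cannot stand for one animal, it was above 0.1 in 2 of 4 cerebrum and 1 of 5 cerebellum pairs. There 4 of 18 libraries correlated best with their own number. A replicate block gave 3 ratio calls in cerebrum (7 without it; Ala-TGC-1-1, Ala-TGC-2 and Ala-TGC-4-1 passed in both), 9 between tissues in mutants and 2 for the difference, where 33.1%, 64.9% and 23% of isodecoders were called. For tissue levels the block added the calls of Ala-CGC-4-1 (0.83, edgeR adjusted p = 0.0225) and Ala-TGC-5 (0.38, edgeR adjusted p = 0.032) in wildtype and of Ala-CGC-1 (0.61, edgeR adjusted p = 0.000262) in mutants. Over all 204 tRNAs it also raised the calls. In wildtype 74 were higher and 81 lower with the block, against 68 and 77 without it. In mutants these were 76 and 80, against 73 and 75.

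Leaving out 1 library gave 0 to 3 calls for cerebrum levels (3 without mutant 1), 0 to 1 for cerebellum levels (1 without mutant 5), 0 to 1 for anticodons within alanine in cerebrum (1 without mutant 1, and 1 without wildtype 5), 4 to 6 for cerebrum ratios (4 without mutant 1, mutant 4 or wildtype 3), 0 to 5 for cerebellum ratios (5 without mutant 5), 3 to 7 for ratios between tissues in mutants (3 without cerebellum mutant 1, 2 or 4) and 1 to 2 for the difference (2 without cerebellum mutant 5). Calls over all tRNAs moved with these fits too. Without cerebrum mutant 1, 24.5% of tRNAs were called for levels (19.7% with all libraries). Without cerebellum mutant 5, the shares were 16.2% for levels (2.48% with all) and 24.6% for ratios (10.4% with all). Shares over all tRNAs in the other fits without 1 library are not given here. Among 3414 single-tRNA alternative values, 161 changed sign without passing in either fit. Isodecoders with few counts set the limit of depth: Ala-CGC-4-1 had 3 counts in its lowest cerebrum library.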
